A study of Mus musculus with 4 samples.

Results

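The genes examined were 10 transcription factors that hold cells in an epithelial state or move them toward a mesenchymal one. They were chosen by name: Snai1, Snai2, Twist1, Zeb1 and Zeb2 on the mesenchymal side, and Ehf, Elf3, Elf5, Grhl2 and Ovol1 on the epithelial side. Every probe that the scanner files assign to one of these symbols was taken, which gave 10 of 28146 gene names and 19 of the 41174 probes on the array that were not controls. Of these, 9 probes belong to the mesenchymal and 10 to the epithelial factors. A probe was kept for testing when both arrays of a line, or of both lines, showed it well above background, and 14 of the 19 were kept (6 and 8), of 24436 in all. Elf5 was the only factor with no kept probe.

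Expression was measured in EPH-4 cells, a non-malignant mouse mammary epithelial line. The control EV-50 carries an empty shRNA vector (H1-2), and shGR-19 carries an shRNA vector against the glucocorticoid receptor GR, with a GR status labelled "depleted <50%". Each line is a single clone made by stable transfection and kept in 2 µg/ml puromycin, so that the shRNA and any other difference between the 2 clones cannot be told apart in a comparison of the lines. Both lines were grown in serum-free medium with no glucocorticoid added, and each of the 4 samples, 2 per line, gave 300 ng RNA for labelling with Cy3 and an Agilent Whole Mouse Genome array.

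The Snail, Twist and Zeb factors bind E-box sequences and are known for repressing E-cadherin and other junction genes during epithelial to mesenchymal transition. Ehf, Elf3 and Elf5 are ETS factors found mainly in epithelia, Grhl2 is a grainyhead factor that activates junction genes, and Ovol1 is a zinc finger repressor of the mesenchymal program. In the mammary gland Elf5 is known as the factor of the milk-secreting alveolar cells, and Snai2 as a factor of the basal layer.

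Among these factors the deposited values that differed most between the lines were those of Ehf, and the probes that report it are shown because they join separate stretches of its transcript. On mm9, the build of the array's annotation, the 60 bases of the brighter probe (Ehf A) lie within chr2:103114085-103114244 on the minus strand, so that 100 bases of the genome inside that span are not in the probe. Those of the second probe (Ehf B) lie within chr2:103119907-103123723 on the same strand, with 3757 bases between their parts. A probe of this kind pairs with spliced RNA.
Ehf A: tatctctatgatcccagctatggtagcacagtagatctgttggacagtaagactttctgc
Ehf B: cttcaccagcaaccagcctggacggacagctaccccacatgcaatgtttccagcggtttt
The third Ehf probe (Ehf C) lies in one piece at chr2:103104384-103104443. Letters after a gene name number its probes here by falling mean signal.

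Among the promoters that RefSeq lists for these factors on GRCm38.p6, those of Snai1 and Elf3 are shown because both genes had higher deposited values in shGR-19 and both promoters hold the E-box CACCTG, set in capitals, to which Snail and Zeb zinc fingers are known to bind. Each window holds the 250 bases before the start. The Snai1 window is chr2:167537945-167538194 on the plus strand, and its E-box starts 126 bases upstream. The Elf3 window is chr1:135258473-135258722 on the minus strand, with the E-box 140 bases upstream.
Snai1: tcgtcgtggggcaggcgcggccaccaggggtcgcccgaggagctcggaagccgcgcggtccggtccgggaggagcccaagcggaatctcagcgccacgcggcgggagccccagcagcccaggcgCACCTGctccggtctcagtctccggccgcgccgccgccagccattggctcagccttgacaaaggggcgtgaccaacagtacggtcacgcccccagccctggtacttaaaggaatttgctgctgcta
Elf3: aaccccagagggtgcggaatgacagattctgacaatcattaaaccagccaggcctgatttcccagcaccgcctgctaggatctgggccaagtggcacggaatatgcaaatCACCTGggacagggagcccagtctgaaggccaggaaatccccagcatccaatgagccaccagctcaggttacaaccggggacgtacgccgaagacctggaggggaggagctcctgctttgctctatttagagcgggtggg
CACCTG, read on both strands, occurs in 17.2% of the 32851 promoter windows in the same table. It occurs 3 times before the first listed start of Elf5, and in none of the windows of Twist1 and Zeb2. AGAACA, a core of the sequence that GR binds, was not found in the listed windows of Snai1, Twist1, Zeb2, Elf3 and Elf5, and 16.1% of all windows hold it. Both are matches of letters and not measured sites. No window was read for Snai2, Zeb1, Ehf, Grhl2 and Ovol1. The motif can therefore not be compared between factors with higher and with lower values.

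Before any result, the 4 arrays have to be set against their labels. Over 12627 brighter probes, the SD of the scanner difference between both arrays labelled replicate 1, one from each line, was 0.0848 log2 units, while the duplicates of a line had an SD of 0.546 (EV-50) or 0.663 (shGR-19). The deposited log2 values showed the opposite order, at 0.101 and 0.0909 between duplicates and from 0.467 to 0.475 between lines. The line difference of the table correlated over these probes, which are not independent, with that of the scanner arrays labelled replicate 2 (r = 0.958) and hardly with that of the arrays labelled replicate 1 (r = 0.119). The 4 probes for Nr3c1, the gene of GR and the target of the shRNA, were lower in shGR-19 by log2 differences between -1.94 and -1.41 in the table and between -1.95 and -1.47 on the arrays labelled replicate 2, but only between -0.35 and -0.20 on those labelled replicate 1. Each factor is therefore given in both sources and also for the arrays labelled replicate 2 alone, which are 1 against 1 and carry no test. The cause was not tested. Of 8 mammary epithelial markers 7 were well above background on all 4 arrays, but so were 6 of 8 immune markers. Detection alone therefore does not tell cell types apart. The summed signal of the epithelial markers lay between 429977 and 502442 per array, and that of the immune markers between 425 and 524.

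Snai1, a repressor known for silencing E-cadherin, had background-subtracted signals of 170 and 449 in EV-50 and of 193 and 629 in shGR-19. Pairs of values are given here and below in the order of the labelled replicate numbers, 1 before 2. The scanner signal thus followed the replicate number, and the lines overlapped. In the deposited table, where 0 is the median of the probe, the values were -0.22 and -0.36 in EV-50 and 0.44 and 0.22 in shGR-19. Both shGR-19 columns lay above both EV-50 columns, by 0.62 ± 0.11 log2 units (SE, 2 columns per line; 95% interval 0.29 to 0.94), a 1.54-fold difference. This did not pass the threshold of 0.01 used here for a single probe (limma, adjusted p = 0.0273). The scanner files gave 0.36 ± 0.70, and the pair labelled replicate 2 gave 0.50. Its 1 probe lies at chr2:167368073-167368132 (mm9).

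Snai2, also called Slug, had a lower scanner signal with the shGR-19 label at both replicate numbers, at 546 and 394 against 682 and 510 in EV-50. The ranges still overlapped. Its deposited values were 0.16 and 0.14 in EV-50 and -0.14 and -0.18 in shGR-19. That is a difference of -0.31 ± 0.05 log2 units (adjusted p = 0.0217 with limma), close to the scanner estimate of -0.32 ± 0.35 and to the -0.36 of the replicate 2 pair. The probe lies at chr16:14709361-14709420 (mm9), and no other probe measures Snai2.

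Twist1, a basic helix-loop-helix factor, had scanner signals of 160 and 153 in EV-50 and 142 and 174 in shGR-19, and the lines overlapped. The table gave -0.08 and 0.00 against 0.00 and 0.05, a difference of 0.07 log2 units with a 95% interval of -0.10 to 0.24 (limma, adjusted p = 0.40). The replicate 2 pair gave 0.20 and the replicate 1 pair -0.14, and no direction can be read from an interval that spans 0. The probe lies at chr12:34644411-34644470 (mm9).

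Zeb1 and Zeb2 are large zinc finger repressors of E-cadherin. The Zeb1 signals were 86.1 and 27.6 in EV-50 and 90.5 and 34.0 in shGR-19, high on both arrays labelled replicate 1 and low on both labelled replicate 2. In the table its columns overlapped (0.18 and -0.44 against -0.12 and 0.12), and the difference of 0.13 had a wide interval from -0.61 to 0.87 log2 units (limma, adjusted p = 0.72). The replicate 2 pair gave 0.32.

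Zeb2 was measured by 5 probes, of which 3 (Zeb2 C, D and E) were well above background on no array, with signals between 1.78 and 4.37. The brightest probe, Zeb2 A, gave 31.5 and 96.8 in EV-50 and 38.5 and 78.7 in shGR-19. Zeb2 B gave 13.2, not well above background, and 32.5 in EV-50, and 12.7 and 25.7 in shGR-19. On both probes the arrays labelled replicate 2 were the brighter ones in both lines. The kept probes were not alike in the table, where Zeb2 A differed by 0.02 (limma, adjusted p = 0.91) and Zeb2 B by -0.34 ± 0.06 log2 units (adjusted p = 0.0259). Between the arrays labelled replicate 2 they differed alike, by -0.28 and -0.33.

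**Figure D1:**
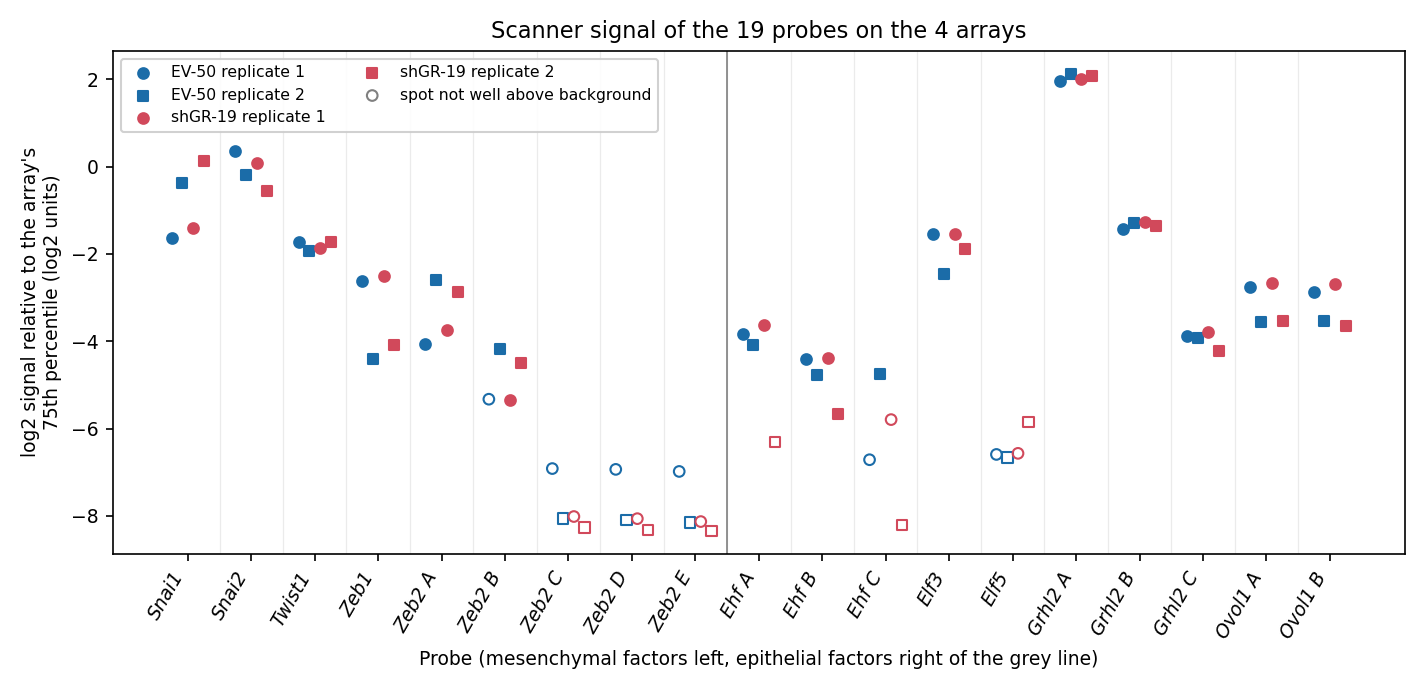
Scanner signal of the 19 probes on the 4 arrays, as log2 of the background-subtracted signal relative to the 75th percentile of each array; colour gives the line, shape the replicate number, and open symbols are spots not well above background. For Snai1, Zeb1, Zeb2 A and Ovol1 the symbols pair by replicate number, whereas for Ehf A the array labelled shGR-19 replicate 2 lies apart at -6.31 and the other 3 between -4.09 and -3.63.

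Ehf, an ETS factor of glandular epithelium, had the largest difference between lines of the 9 factors tested, in the table and between the arrays labelled replicate 2. The Ehf A signals were 37.2 and 34.3 in EV-50 and 41.6 and 7.30 with the shGR-19 label. The last was not well above background, so that only 1 of the arrays with the shGR-19 label was low. On the arrays labelled replicate 2 alone EV-50 was at least 3.98-fold higher, taking the lowest signal well above background as the bound. In the table both shGR-19 columns were low, at -1.17 and -2.73 against 1.33 and 1.17 in EV-50. The table's difference was -3.20 ± 0.59 log2 units (95% interval -4.93 to -1.46), with the probe well above background on 1 of the 2 shGR-19 arrays. The spread between the shGR-19 columns was wide, and the adjusted p of 0.0291 in limma did not pass.

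Ehf B was well above background on all 4 arrays, with signals of 24.8 and 21.4 in EV-50 and of 24.6 and 11.5 in shGR-19. Again the array labelled shGR-19 replicate 2 was the low one, 1.85-fold below EV-50 replicate 2. The deposited values were 0.78 and 0.98 in EV-50 and -0.78 and -1.22 in shGR-19, with no overlap. The probe fell by 1.88 log2 units (the table's difference of -1.88 ± 0.18 has a 95% interval of -2.42 to -1.34), a 3.68-fold decrease that passed the test (limma, adjusted p = 0.00902). It was the only one of the 14 kept probes called, against 11.6% of all kept probes called at an adjusted p below 0.01, and 4.26% called with a change of more than 2-fold as well. With any 1 of the 4 columns left out the difference stayed between -2.10 and -1.66. The call was lost there, but so was every other call on the array, so this loss is not particular to Ehf B. With all probes kept the call was lost too (limma, adjusted p = 0.0299).

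Ehf C was not kept, since it was well above background only on the array labelled EV-50 replicate 2, where its signal was 21.6 against 5.03, 9.30 and 1.96 on the other 3. The deposited values were 1.05 and 0.99 in EV-50 and -0.99 and -1.06 in shGR-19, from which no fold is given because both shGR-19 arrays had the probe at background. On the scanner arrays labelled replicate 2 EV-50 was at least 2.51-fold higher. All 3 Ehf probes thus had lower table values and a lower signal in shGR-19 replicate 2, while the arrays labelled replicate 1 showed log2 differences of 0.19 for Ehf A and 0.02 for Ehf B, and on neither of them was Ehf C well above background. In the scanner fit of all 4 arrays Ehf A differed by -1.01 ± 0.93 and Ehf B by -0.43 ± 0.49 log2 units, and with normexp background correction by -0.29 and -0.17.

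Elf3, an ETS factor of the same subfamily, lay on the other side. Its signals were 182 and 107 in EV-50 and 178 and 157 in shGR-19, and the deposited values were -0.17 and -0.39 against 0.31 and 0.17. The table columns did not overlap, and shGR-19 was higher by 0.52 ± 0.11 log2 units or 1.43-fold (95% interval 0.21 to 0.83; limma, adjusted p = 0.0356), short of the threshold. The replicate 2 pair differed by 0.56 and the replicate 1 pair by 0.00. The 1 Elf3 probe lies at chr1:137150328-137150387 (mm9). The opposite signs of Elf3 and Ehf were not tested against each other.

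Elf5 was well above background on none of the 4 arrays, with signals of 5.47, 5.74, 5.44 and 10.1, so that only an upper bound for its level is known. In the RefSeq gene order Ehf and Elf5 are neighbours with 0 protein-coding genes between them. Elf5 itself gave no measured level to set beside that of its neighbour.

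Grhl2 had 3 kept probes, all at chr15, and each varied little in the scanner files. The brightest, Grhl2 A, gave 2052 and 2560 in EV-50 and 2084 and 2429 in shGR-19. Grhl2 B gave 197 and 239 against 215 and 227, and Grhl2 C 36.0 and 38.3 against 37.5 and 31.1. The lines overlapped on all 3 probes. Table differences were -0.15, -0.23 and -0.35 log2 units with limma adjusted p of 0.078, 0.082 and 0.41. The 95% interval was -0.29 to -0.02 for Grhl2 A and, with wider spread between the shGR-19 columns, -1.21 to 0.51 for Grhl2 C. On the arrays labelled replicate 2 alone the probes differed by -0.06, -0.07 and -0.29.

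Ovol1 was measured by a pair of kept probes, both on chromosome 19. Ovol1 A gave 78.5 and 49.9 in EV-50 and 81.8 and 50.1 in shGR-19, and Ovol1 B gave 72.7 and 50.2 against 80.3 and 46.0. The arrays labelled replicate 1 were the brighter ones in both lines. In the table the differences were 0.00 for Ovol1 A (95% interval -0.33 to 0.34) and -0.22 for Ovol1 B (-0.55 to 0.10), with limma adjusted p of 0.98 and 0.21. The replicate 2 pair gave 0.02 and -0.11.

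**Figure D2:**
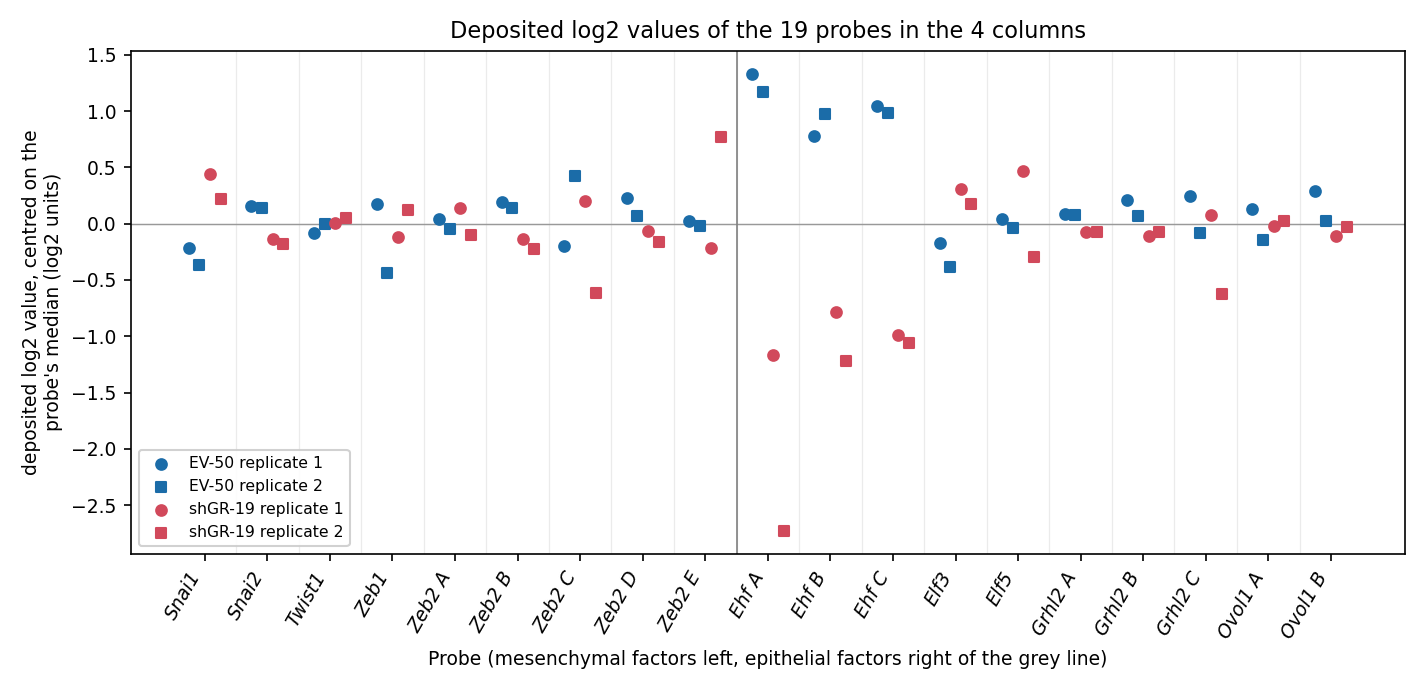
Deposited log2 values of the 19 probes in the 4 columns, each probe centred on its median; colour gives the line and shape the replicate number. The 3 Ehf probes lie between 0.78 and 1.33 in EV-50 and between -2.73 and -0.78 in shGR-19, and the kept probes of the other 8 factors measured lie between -0.62 and 0.44.

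As groups, the factors showed no single direction. Of the 14 kept probes 6 had an adjusted p below 0.05 in the deposited values, against 36.5% of all kept probes. Snai1 and Elf3 were higher (18.3% of all), and Snai2, Zeb2 B, Ehf A and Ehf B lower (18.2% of all). Ehf A was kept only through EV-50, where its values were higher, and Zeb2 B only through shGR-19, where they were lower. Each direction thus held both mesenchymal and epithelial factors. The columns of the lines did not overlap for 10 of 14, against 71.9% of all kept probes. By the brightest kept probe of each gene, the median difference was 0.07 log2 units over the 5 mesenchymal and -0.07 over the 4 epithelial factors, beside 0.02 over all 16755 kept genes. With a trend on the mean deposited value and a robust prior in the same fit, 5 of the 14 were called, against 38.6% of all kept probes. The mean of a centred probe is not a level. Besides Ehf B, Snai1 (adjusted p = 1.18e-05), Snai2 (0.000155), Zeb2 B (4.22e-05) and Elf3 (3.69e-05) passed in that fit.

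The scanner files called none of the 14 probes, and 0% of all kept probes (limma, adjusted p below 0.01). At an unadjusted p below 0.05 they gave 209 of all kept probes, which is 0.855%, and 0 of the members. No member had lines that did not overlap, against 17.9% of all kept probes, and the unadjusted p of the members ranged from 0.334 to 0.989.

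**Figure D3:**
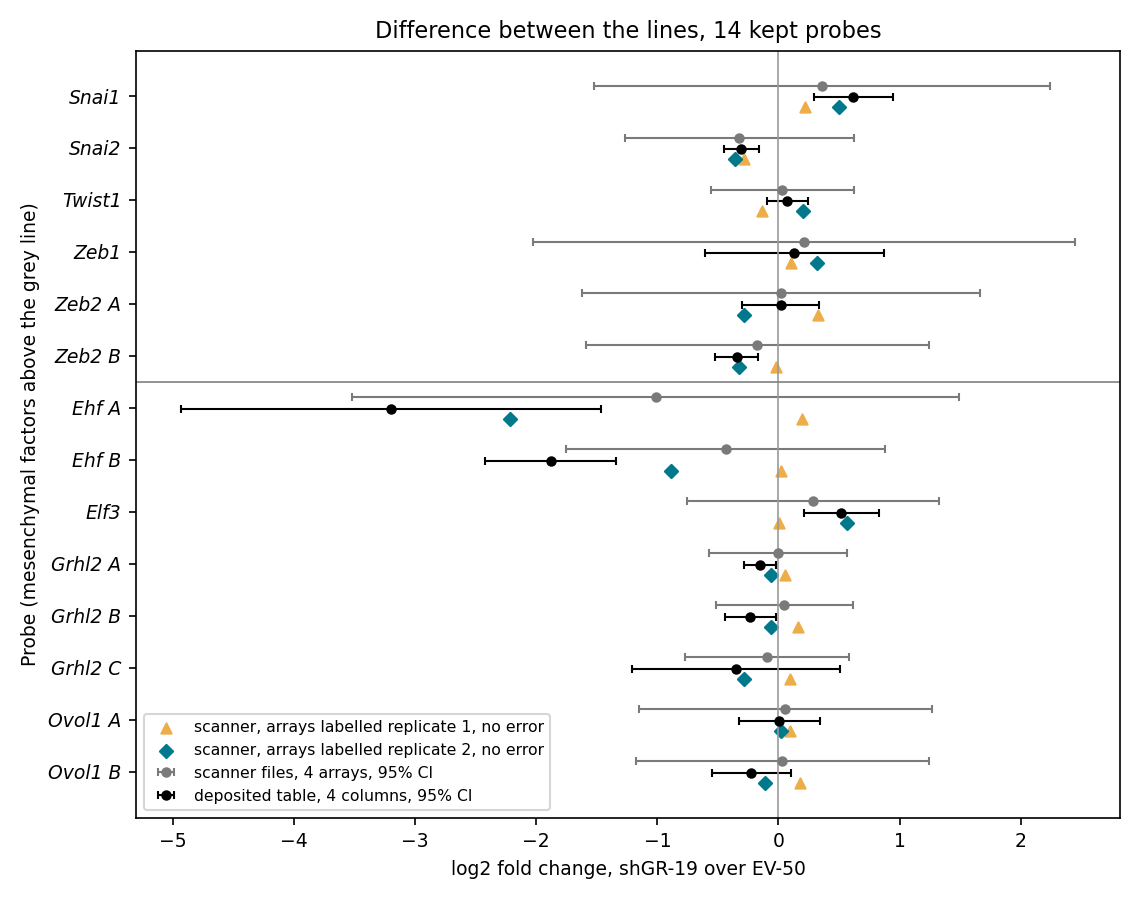
Log2 fold change of shGR-19 over EV-50 for the 14 kept probes; circles with bars give the estimate and 95% interval of limma in the scanner files (grey) and in the deposited table (black), and triangles and diamonds the single differences between scanner arrays labelled replicate 1 and replicate 2. The diamonds lie on the same side of 0 as the black circles for 13 of the 14 probes, all but Zeb2 A, and the triangles lie between -0.29 and 0.32.

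Between duplicates several factors differed more in the scanner files than in the table. The array labelled replicate 2 exceeded that labelled replicate 1 for Snai1 by 1.26 log2 units in EV-50 and 1.54 in shGR-19, and for Zeb2 A by 1.47 and 0.86, whereas Zeb1 was lower by -1.79 and -1.58. Snai1 and Zeb1 were the 2 members with more than a 2-fold difference in the same direction in both lines, a pattern shown by 4.71% of all kept probes. Among the deposited values 0 members did so, beside 0.291% of all kept probes, and Snai1 differed there by -0.15 in EV-50 and -0.23 in shGR-19 between the columns labelled 2 and 1.

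**Figure D4:**
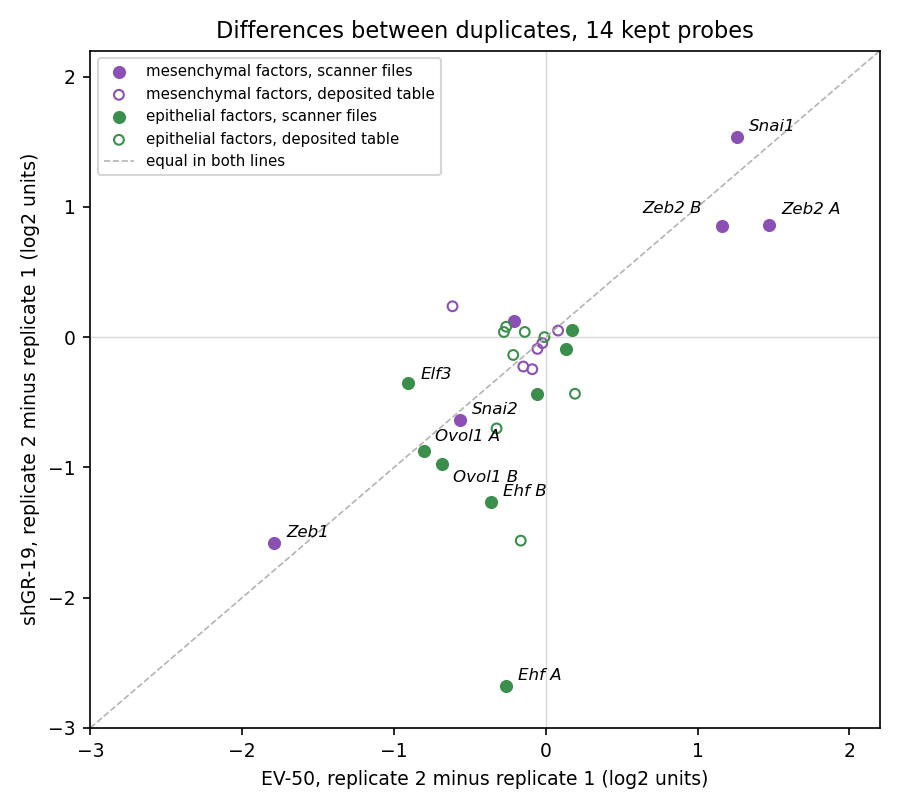
Difference between duplicates (replicate 2 minus replicate 1, log2 units) in EV-50 on the x axis and in shGR-19 on the y axis for the 14 kept probes; filled symbols are scanner files, open symbols the deposited table, and the dashed line marks equal differences. Snai1 and Zeb1 lie far out along the line at 1.26 and 1.54 and at -1.79 and -1.58, Ehf A lies off it at -0.26 and -2.68, and most open symbols lie near 0.

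Around these factors, further genes of the same program were taken from lists, with the brightest kept probe per gene and a call at more than 2-fold and an adjusted p below 0.01. By the deposited values 2.16% of all kept genes were called higher and 2.7% lower, and in the scanner files 0 genes were called on any list. With any 1 of the 4 table columns left out, 0 genes were called on any list as well. Of 15 kept further mesenchymal factors 3 rose and none fell, with a median of 0.22. They were Hmga2, a chromatin factor that can induce Snai1 and Twist1 (1.98 log2 units), the homeobox factor Prrx1 (1.57) and Twist2, the paralog of Twist1 (1.42). Of 4 kept Prrx1 probes the dimmest did not pass, at 0.78. On the scanner arrays labelled replicate 2 alone, shGR-19 was higher for these genes by 1.91, 1.27 and 1.26 in the same order. The arrays labelled replicate 1 differed by only 0.20, -0.02 and 0.10. Of 17 kept further epithelial factors, which include Ovol2 and Klf4, none was called, and the median was -0.19.

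The genes that these factors are known to control gave calls on both sides. Of 26 kept epithelial target genes 2 fell, both coding for cadherins of desmosomes: Dsg2 fell by 3.02 log2 units, and Dsc2 fell by 1.28 on 1 of 3 probes. Between the scanner arrays labelled replicate 2 they differed by -2.53 and -1.02, and between those labelled replicate 1 by only 0.01 and -0.04. E-cadherin itself, Cdh1, differed by 0.17 (limma, adjusted p = 0.066), and Epcam by -0.03, Krt8 by 0.06 and Krt18 by 0.23, with no call for any of them. The list median was -0.02, and -0.01 between the scanner arrays labelled replicate 2 and 0.03 between those labelled replicate 1.

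Of 19 kept mesenchymal target genes 6 rose and 3 fell, with a median of 0.20. The median was 0.21 between the scanner arrays labelled replicate 2 and -0.04 between those labelled replicate 1. The increases included the collagen chain Col1a2 (3.27 log2 units), the matrix protease Mmp2 (2.31), the growth factor receptor Pdgfrb (2.03), the intermediate filament vimentin, Vim (1.82), and the matrix protein Sparc (1.29). The decreases were in the matrix proteins Fbn1 (-2.15), Postn (-1.72) and Tnc (-1.59). One of 3 Tnc probes did not pass, at -2.82. Mmp2 and Fbn1 were dim and each well above background on only 3 of the 4 arrays. For Mmp2 the scanner arrays labelled replicate 1 differed by -1.39 and those labelled replicate 2 by 1.62 log2 units. For the other called genes named here, the arrays labelled replicate 1 differed by -0.34 (Postn) to 0.33 (Vim). Those labelled replicate 2 differed by -2.04 (Fbn1) to 3.37 (Col1a2). The called Vim probe was dim, with signals of 43.4 and 16.7 in EV-50 and 53.3 and 67.1 in shGR-19, and a further Vim probe was well above background on 0 arrays. Fibronectin, Fn1, differed by -0.64 and did not pass (adjusted p = 0.037 with limma), and N-cadherin, Cdh2, was well above background on no array with any of its 3 probes.

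Col1a2 and Pdgfrb are also fibroblast markers. All 3 kept genes of the 8 on that marker list rose in the table. Of these, Pdgfra was kept only through shGR-19, where it was higher, so that the filter favoured its rise. Col1a2 and Pdgfrb were well above background on all 4 arrays. The summed signal of the list was 1067 and 3826 in EV-50 and 972 and 28810 in shGR-19, with Dcn well above background on no array. No marker of immune, endothelial or adipose cells was called, and Itgam and Ptprc (immune), Cdh5, Emcn, Pecam1 and Tie1 (endothelial) and Adipoq, Cfd and Lep (adipocyte) were well above background on none. The part of the fibroblast markers in the differences of Ehf and of the mesenchymal genes was not tested. In RNA from whole cultures, a smaller share of cells with a gene and less RNA of it per cell cannot be told apart.

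Regulators upstream of the factors were called 6 times among 24 kept. The ligand Tgfb2 (1.50 log2 units), the receptor Fgfr1 (1.28), the helix-loop-helix inhibitor Id3 (1.46) and the kinase Lats2 (1.02) rose. The inhibitor Id2 (-1.85) and the ligand Tgfb1 (-1.16) fell. Between the scanner arrays labelled replicate 1 these 6 genes differed by -0.03 (Tgfb1) to 0.25 (Id3). Between those labelled replicate 2 they differed by -1.89 (Id2) to 1.46 (Tgfb2). The list median was 0.26, against 0.29 between the scanner arrays labelled replicate 2 and 0.03 between those labelled replicate 1. For Id2, Fgfr1 and Lats2 at least 1 further probe missed the call, without a change of direction. Among the milk protein genes 4 of 8 were kept and none was called.

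**Figure D5:**
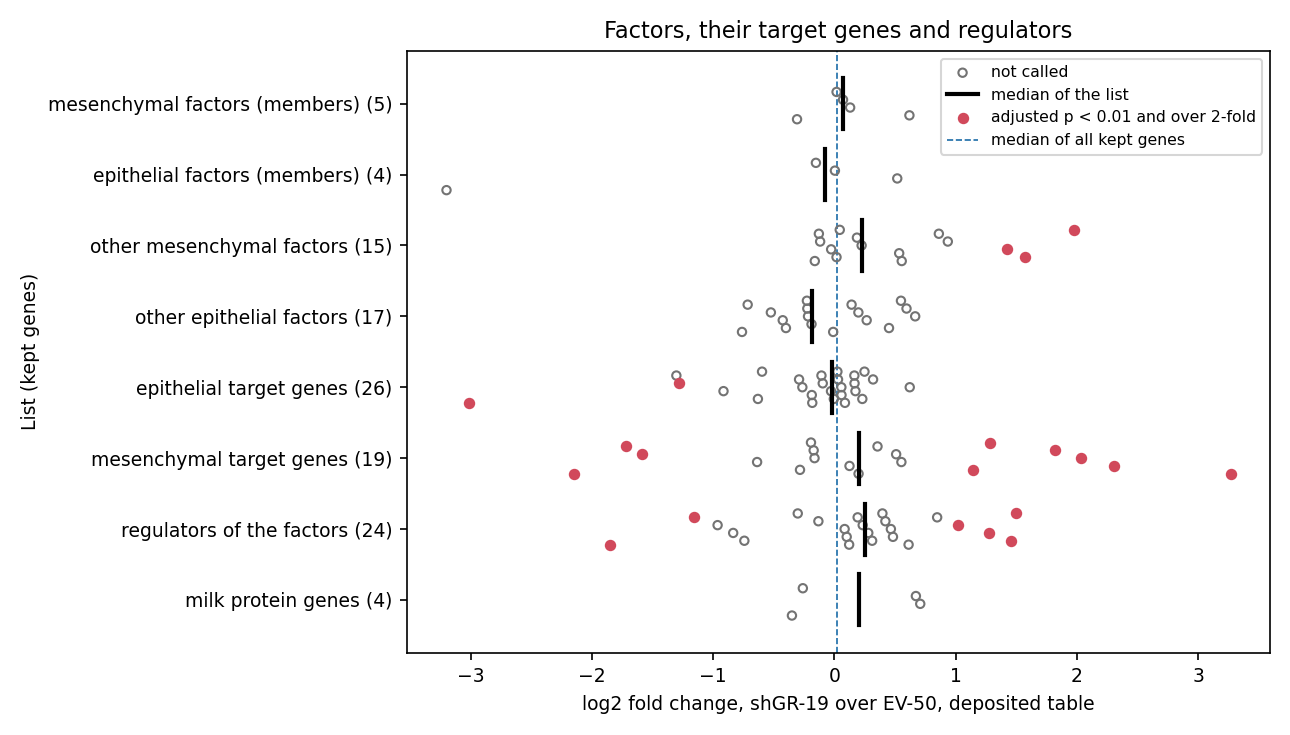
Log2 fold change of shGR-19 over EV-50 in the deposited table for each kept gene of the member and pathway lists (number of kept genes in brackets); filled red points passed the call, black bars are list medians and the dashed blue line is the median of all kept genes, 0.02. Calls lie on both sides for the mesenchymal target genes (6 higher, 3 lower) and for the regulators (4 higher, 2 lower). Ehf is the point at -3.20 among the epithelial factors. It stands for Ehf A, which was not called and was kept only through EV-50, where it was higher.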

How the data were processed

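The authors deposited the intensity of every spot, background-subtracted by Agilent Feature Extraction 10.5.1.1 with its default one-colour settings and not scaled between arrays. A table of log2 values of the same samples was also deposited by the authors, with GeneSpring as its source and 0 as the median of each probe. Slide and scan could not be tested as batches, since the 4 arrays shared 1 of each. Whether duplicates were separate cultures is not given in the sources used here, and p-values then measure only the spread between arrays, which may be technical. The number of arrays limits the precision.

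Outlier spots (74 to 139 per array) and control spots were left out, no spot was saturated, and spots of 1 probe were averaged. Processed signals were put on the log2 scale, and the array's own 75th percentile was subtracted. Both sources were fitted with limma 3.58.1 in R 4.3.3 (lmFit, eBayes, Benjamini-Hochberg over 24436 kept probes). A single probe was called at an adjusted p below 0.01, and counts for lists also needed more than 2-fold, the fold and p of the study's methods, which name no adjustment. No exact permutation of 2 against 2 arrays can give a p below 0.333. The fits were tested on simulated data. The members and lists were chosen with earlier results of these data known. Named were all member probes, the called genes of each list (at most the 8 largest) and a few target genes whatever their values. Grhl3 and Hdac1 were not matched to a probe name, and 3 symbols were matched to older ones. Alternatives were normexp with an offset of 50, quantile scaling, scaling over detected probes, other filters on dim probes, a trend with a robust prior (statmod 1.5.0), a block for the replicate number, the omission of each array, other thresholds, averages over all probes of a gene, and the arrays labelled replicate 2 alone. Probe coordinates are those of mm9 in the files, with no gene model of that build used, and promoters are from RefSeq on GRCm38.p6. Assays other than the arrays were not analysed here.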

Additional observations from a re-analysis of the deposited data

How the results depend on the processing

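Counts of calls in this paragraph also needed more than 2-fold unless stated otherwise. The scanner files called 0 probes in each direction, and with the unadjusted p below 0.01 they called 19 higher and 16 lower. The deposited table in their place called 457 higher, 585 lower and 1 member lower (1350 higher and 1476 lower without the fold limit). In that table, keeping all probes left 15 higher, 28 lower and 0 members, and 2 mesenchymal target genes called higher, 0 lower, and 0 genes of the other factor, target, regulator and milk protein lists. The 2 were Col1a2 and Col1a1, both also on the fibroblast marker list, and Col1a1, not kept otherwise, is named after its value was seen. The replicate number as a block left 0 probes, 0 members and 0 list genes, and so did the omission of any 1 column (lowest and highest count 0). The scanner signals went with the replicate number, and deviations of same-numbered arrays correlated at 0.574. In the table they correlated at 0.056. With only 2 pairs and unlike sources, the numbers were not shown to pair the samples. With more than 2-fold and either an unadjusted p below 0.01 or an adjusted p below 0.05, 2 members were called lower in the table, Ehf A and Ehf B. Of these, Ehf A was kept only through EV-50, the line where it was higher. All 20 called member probes and named genes of the pathway lists, Ehf B among them, lost the call under 1 or more of the settings that kept all probes, blocked or left out a column. The cause was not tested.

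No scanner value of a member was called, and most turned with 1 array left out. The lowest and highest log2 differences were then -0.41 and 1.13 for Snai1, -0.073 and 0.14 for Twist1, -0.68 and 1.11 for Zeb1, -0.72 and 0.75 for Zeb2 A, -0.75 and 0.41 for Zeb2 B, -2.35 and 0.33 for Ehf A, -1.07 and 0.20 for Ehf B, -0.17 and 0.74 for Elf3, -0.089 and 0.083 for Grhl2 A, -0.018 and 0.11 for Grhl2 B, -0.31 and 0.12 for Grhl2 C, -0.38 and 0.49 for Ovol1 A, and -0.45 and 0.52 for Ovol1 B. With normexp background correction Ehf A differed by -0.29 and Ehf B by -0.17, Zeb2 A turned to -0.040 and Grhl2 A to 0.012, and with the table in place Grhl2 B turned to -0.23 and Ovol1 B to -0.22. In the table the omission of 1 column gave -0.18 to 0.44 for Zeb1, -0.10 to 0.14 for Zeb2 A, -0.13 to 0.14 for Ovol1 A, -0.17 to 0.11 for Epcam and -0.010 to 0.13 for Krt8. The table differences of the other kept member probes kept their sign under all alternatives run, down to -0.003 for Grhl2 C. Of these settings only the omission of a column changes a table difference. It could not turn the sign where the columns of the lines do not overlap. Snai1, Snai2, Zeb2 B, Ehf A, Ehf B and Elf3 are among such probes.

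The list median of further mesenchymal factors moved to 0.084 with the mean of a gene's probes. That of mesenchymal target genes moved to 0.28 with probes well above background on all 4 arrays and ranged from 0.094 to 0.36 with 1 column left out, and that of the regulators from 0.17 to 0.25. The milk protein median moved to -0.016 in the scanner files and -0.11 in the table with all probes kept. Signal over background limits Elf5, Zeb2 C, D and E and Ehf C, for which no measured fold can be given. It also limits the size of the Ehf A difference, since that probe was not well above background on the array labelled shGR-19 replicate 2.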

Other observations

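The genes on either side of Ehf and Elf5 in the RefSeq order were read in the deposited table as well. Apip differed by 0.48 (limma, adjusted p = 0.00927) and Abtb2 by -0.56 log2 units on its kept probe (0.00869; a further probe that was not kept gave -1.12), while Cat, next to Elf5, differed by 0.45 (0.0103) and Nat10 by -0.18. The kept Cd44 probes differed by 0.27, 0.13 and 0.23, and those of Pdhx by -0.04 and 0.02. The difference of Ehf B was -1.88.
Of the 8 markers of basal or myoepithelial cells 6 were kept, and Krt14 fell by 1.13 log2 units in the table, the only call on the list. Krt14 differed by 0.02 between the scanner arrays labelled replicate 1 and by -1.18 between those labelled replicate 2. The others went both ways, with Trp63 at -0.40 (limma, adjusted p = 0.0248), Mylk at 0.41 (0.0217) and Myh11 at 0.39 (0.0715), and the list median was -0.24.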
